A study of Mus musculus with 8 samples.

Results

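The 48 protein-coding genes described here encode the extracellular side of Wnt signalling. They comprise 19 Wnt ligands, 10 Frizzled receptors, 5 co-receptors (Lrp5, Lrp6, Ror1, Ror2 and Ryk), 3 R-spondins, 3 Lgr receptors of the R-spondins, and 8 secreted antagonists (the Sfrp genes with Frzb, Wif1, Dkk2 and Dkk3). They were picked by gene symbol from the 54532 genes of the count table. The rule itself uses no values, but it was set with earlier results of these data known. Of the 48, 47 had at least 1 read and 41 had enough reads to be tested, out of 15470 genes tested in all.

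The cells were mouse embryonic fibroblasts of wild-type genotype, grown for 4 days in 4 different media and sequenced as bulk RNA, 2 libraries for each. All media but the control held a cocktail named CFAE, made of CHIR99021 (a GSK-3 inhibitor), Forskolin (which activates adenylyl cyclase), AM580 (a retinoic acid receptor alpha agonist) and EPZ04777, spelled as labelled (a DOT1L inhibitor). The group CFAE+8+MSC received this cocktail with A-83-01 and the CDK8 and CDK19 inhibitor MSC2530818. The group CFAE+6 received it with E-616452, and the group CFAE+8 with A-83-01. Both of these last compounds, A-83-01 and E-616452, block signalling by the type I receptor of TGF-beta. The control group, MEF, stayed in fibroblast medium. The labels give no doses, embryonic age, passage or number of embryos, and leave unsaid whether separate cultures gave the 2 libraries of each group. The p-values below therefore measure only the spread between these libraries, which may be technical.

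Wnt ligands are lipid-modified secreted proteins that bind a Frizzled receptor together with Lrp5 or Lrp6, which stops GSK-3 from marking beta-catenin for destruction, or with Ror1, Ror2 or Ryk, which act largely without beta-catenin. R-spondins bind Lgr4, Lgr5 and Lgr6 and slow the removal of Frizzled receptors from the cell surface. Sfrp proteins, Frzb and Wif1 bind Wnt ligands outside the cell, whereas Dkk2 binds Lrp5 and Lrp6. A GSK-3 inhibitor such as CHIR99021 acts below the ligands and receptors, inside the cell. Fibroblasts are a known source of Wnt5a, R-spondins and Wnt antagonists in many tissues.

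Library totals lay between 10958430 and 11913143 counts, and mitochondrial transcripts took 2.08 to 2.20% of the counts in CFAE+8+MSC, 2.08 to 2.21% in CFAE+6, 1.96 to 2.00% in CFAE+8 and 1.21 to 1.24% in MEF. All 13 fibroblast markers listed had reads in every group. Their summed levels were 17364 to 17881 CPM (read counts scaled to library size) in CFAE+8+MSC and 15111 to 15625 CPM in CFAE+6. CFAE+8 had 16725 to 16791 CPM and MEF 41626 to 42971 CPM. Summed levels of 10 mesothelial markers were 60.9 to 63.5 CPM in CFAE+8+MSC, 84.0 to 91.1 CPM in CFAE+6, 74.5 to 74.9 CPM in CFAE+8 and 419 to 421 CPM in MEF, with Lrrn4 at 0 in all 3 cocktails and Upk3b at 0 in CFAE+8. Macrophage markers (10 genes) summed to 18.4 to 18.9, 15.3 to 18.7, 32.3 to 34.2 and 172 to 176 CPM in the same order, and 8 cartilage markers to 38.1 to 39.3, 30.5 to 33.3, 21.3 to 24.9 and 293 to 327 CPM, with Matn1 at 0 in CFAE+8+MSC and CFAE+6. Epithelial markers (10 genes) summed to 36.8 to 38.2 CPM in CFAE+8+MSC, 29.7 to 30.8 CPM in CFAE+6, 9.67 to 11.2 CPM in CFAE+8 and 10.6 to 12.5 CPM in MEF, with Grhl2 at 0 in CFAE+8+MSC and MEF and Esrp1 at 0 in CFAE+8 and MEF. Endothelial markers (10 genes) summed to 116 to 119, 98.4 to 106, 63.7 to 71.7 and 23.1 to 24.9 CPM, again in that order, with Emcn at 0 in both CFAE+8+MSC and CFAE+6, Tie1 at 0 in all groups but CFAE+6, and Cldn5 at 0 in MEF. Against CFAE+8, 5 of 7 tested epithelial, 5 of 7 cartilage, 3 of 7 endothelial and 5 of 10 mesothelial markers rose in CFAE+8+MSC, as did 4 of 7, 2 of 7, 3 of 7 and 4 of 10 in CFAE+6. In each of these comparisons 1 mesothelial marker and 2 of 9 macrophage markers fell, and no macrophage marker rose. Of 13 fibroblast markers, 8 rose and 4 fell in CFAE+8+MSC against CFAE+8, and 6 rose and 5 fell in CFAE+6 against CFAE+8. Of all tested genes, 15.6% rose and 13.8% fell in the first comparison, and 14.3% and 12.3% in the second. In CFAE+8 against MEF, 10 of 10 mesothelial, 8 of 9 macrophage, 8 of 13 fibroblast and 5 of 7 cartilage markers fell. So did 2 of 7 epithelial and 1 of 7 endothelial markers. In that comparison 5 of 13 fibroblast, 4 of 7 endothelial, 1 of 7 cartilage and 1 of 7 epithelial markers rose. Of all tested genes, 31.3% fell and 30.8% rose there. The part of these other cell types in the results below was not tested, and in bulk RNA fewer cells of a type cannot be told apart from less RNA per cell.

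The make-up of the Wnt system differed between the cocktails and fibroblast medium. Per transcript length (TPM, from the deposited gene lengths), Wnt5a, the main ligand for Ror receptors, was the highest ligand in every group, at 118 ± 1.90 TPM in CFAE+8+MSC, 135 ± 7.92 TPM in CFAE+6, 101 ± 1.52 TPM in CFAE+8 and 70.7 ± 1.56 TPM in MEF (mean ± SD, n = 2). Behind it stood Wnt2b and Wnt4 in CFAE+8+MSC, Wnt4 and Wnt2b in CFAE+6 and CFAE+8, and Wnt9a and Wnt10a in MEF. The highest Frizzled was Fzd1 in all 3 cocktails and Fzd2 in MEF. The highest co-receptor was Ror2 in the cocktails and Ryk in MEF, and the highest Lgr gene was Lgr6 in the cocktails and Lgr4 in MEF. Among the 3 R-spondins of the 48 genes, Rspo1 led in CFAE+8+MSC and CFAE+6, Rspo3 in CFAE+8 and Rspo2 in MEF. Rspo4, the remaining R-spondin, is not one of the 48 and stood above all 3 in every cocktail, at 126 ± 4.30 TPM in CFAE+8+MSC, 151 ± 1.41 TPM in CFAE+6 and 88.2 ± 2.07 TPM in CFAE+8, against 0.129 and 0 TPM in the MEF libraries. Among the 8 antagonists of the 48, Dkk3 was the highest in all 4 groups, with Wif1 next in the 3 cocktails and Sfrp1 next in MEF. These ranks hold within the 48 genes, and Notum, a secreted enzyme that strips the lipid from Wnt ligands and is not one of them, had 448 ± 0.953 TPM in CFAE+8+MSC, 511 ± 18.6 TPM in CFAE+6, 482 ± 7.81 TPM in CFAE+8 and 1.003 ± 0.379 TPM in MEF. Exons of Notum overlap those of genes on the other strand over 38.1% of their length, so its level is uncertain.

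Summed over the 19 ligands, levels were 372 ± 4.83 TPM in CFAE+8+MSC, 390.2 ± 3.94 TPM in CFAE+6, 249 ± 2.17 TPM in CFAE+8 and 164 ± 5.02 TPM in MEF. The 8 antagonists summed to 559 ± 12.7, 636 ± 8.60, 440.0 ± 3.002 and 459 ± 8.57 TPM in the same order of groups, and the Frizzled genes to 559 ± 7.18, 505 ± 1.47, 436 ± 6.34 and 546 ± 17.8 TPM. Both libraries of CFAE+8 had the lowest Frizzled sums and the lowest sums of these 8 antagonists, which leave out Notum and Dkk1, while MEF had the lowest ligand sums. Dkk1, a secreted antagonist outside the 48, had 51.6 and 45.1 TPM in the CFAE+8 libraries and 0 TPM in both MEF libraries. That is more than the gap between CFAE+8 and MEF in the antagonist sums, so their order holds for these 8 genes only. It also rests on Dkk3, a diverged Dkk gene counted here among the antagonists. Dkk3 had 146 ± 3.10 TPM in CFAE+8 and 196 ± 5.34 TPM in MEF, a wider gap than that between the sums. Without Dkk3, CFAE+8 would stand above MEF. The sum of Rspo1, Rspo2 and Rspo3 was 51.7 ± 5.20 TPM in CFAE+8+MSC, 54.3 ± 2.70 TPM in CFAE+6, 25.2 ± 1.56 TPM in CFAE+8 and 38.6 ± 3.54 TPM in MEF. With Rspo4 added it was 178 ± 9.51, 206 ± 4.11, 113 ± 3.63 and 38.7 ± 3.44 TPM in the same order, so that CFAE+8 stood below MEF without Rspo4 and above it with Rspo4. These sums were not tested.

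**Figure D1:**
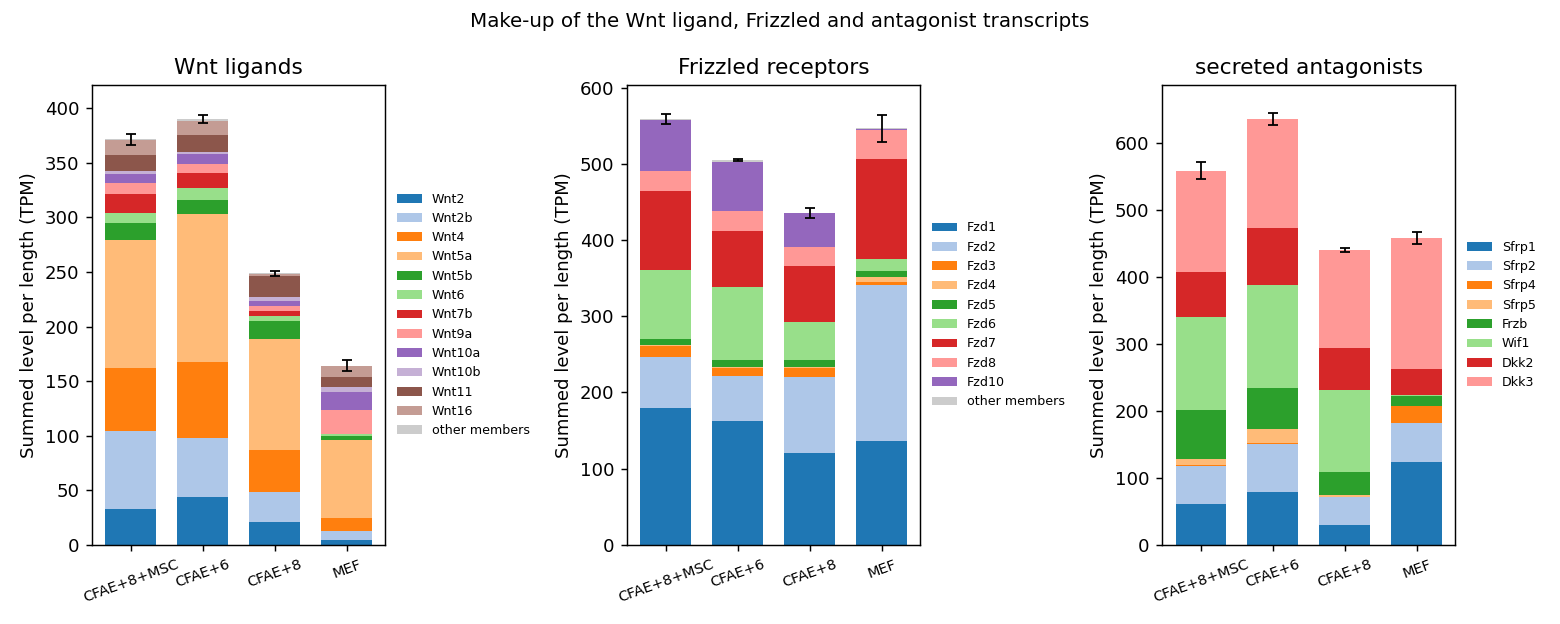
Summed level per transcript length (TPM) of the Wnt ligands, Frizzled receptors and 8 secreted antagonists of the 48 genes in CFAE+8+MSC, CFAE+6, CFAE+8 and MEF. Coloured segments are group means of single genes (those with a mean of at least 5 TPM in 1 group), grey is the rest of the class, and error bars are the SD of the sum over 2 libraries. The ligand bars stand highest in CFAE+6 at 390.2 TPM and lowest in MEF at 164 TPM, and Fzd2 fills the largest part of the Frizzled bar in MEF.

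Between the cocktails, most of the genes that passed the test were higher with MSC2530818 or with E-616452 than in CFAE+8. In CFAE+8+MSC against CFAE+8, 24 of the 41 tested members rose, 1 fell and 16 did not pass. Of all tested genes, 29.3% passed there, 15.6% of all tested genes being higher and 13.8% lower. Rises of at least 2-fold numbered 11 and falls of that size 0, against 4.77% and 1.62% of all tested genes. In CFAE+6 against CFAE+8, 23 members rose, 5 fell and 13 did not pass, against 26.6% of all tested genes called, 14.3% higher and 12.3% lower. There were 13 rises and 0 falls of at least 2-fold there, against 4.47% and 1.11% of all tested genes. The median log2 change of the 41 members was 0.38 in CFAE+8+MSC and 0.49 in CFAE+6, against medians of -0.0045 and 0.00088 over all tested genes. Both comparisons share the CFAE+8 libraries, so their values for a gene are not independent of each other. A gene passed at an adjusted p of 0.05 (edgeR's quasi-likelihood test, Benjamini-Hochberg over all tested genes), and changes below are log2 fold changes ± SE.

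Against MEF the members split in both directions. In CFAE+8+MSC against MEF, 20 of 41 rose and 17 fell, with 64.1% of all tested genes called, 31.9% higher and 32.2% lower. In CFAE+6 against MEF, 22 rose and 16 fell, with 63.1% of all tested genes called, 31.6% higher and 31.5% lower. In CFAE+8 against MEF, 19 rose and 20 fell, with 62.0% of all tested genes called, 30.8% higher and 31.3% lower. The members' medians were 0.32, 0.36 and -0.14 on the log2 scale in these comparisons, against 0.011, 0.018 and 0.012 over all tested genes. These medians were the same with Sfrp5, which had no reads in MEF, set to its fold against a floor of 3 reads. These comparisons share the MEF libraries.

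**Figure D2:**
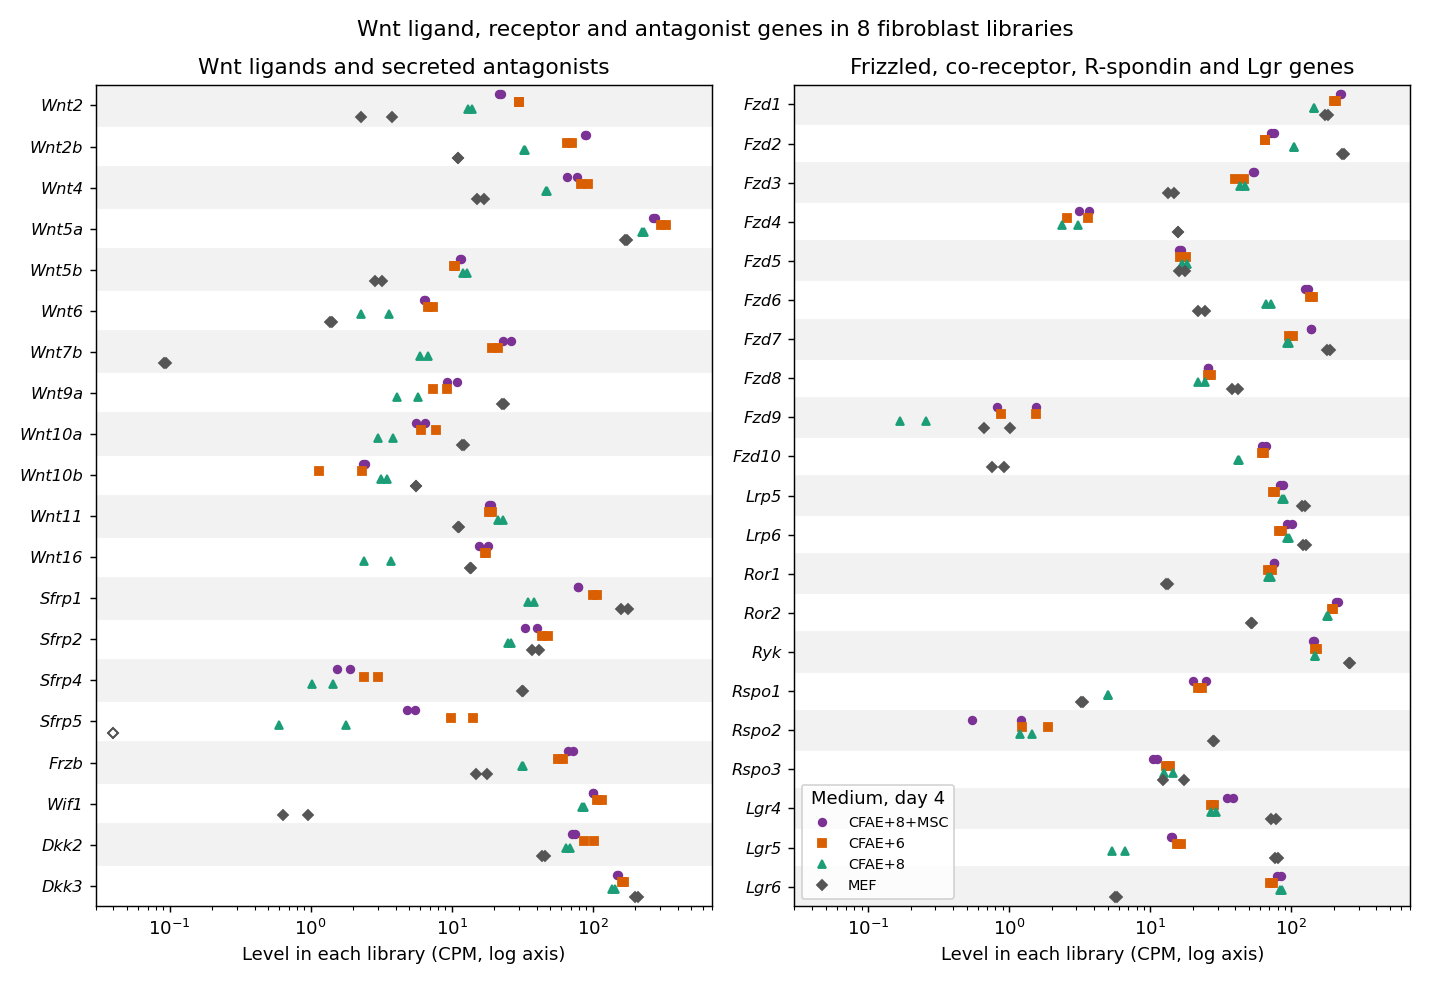
Level of each tested member in every library (CPM, log axis), with 1 row per gene and 1 point per library, coloured CFAE+8+MSC, CFAE+6, CFAE+8 and MEF from top to bottom within a row. The open symbol at the left edge is Sfrp5 in MEF, which had no reads. Wif1, Fzd10, Wnt7b and Lgr6 lie far left in MEF, and Rspo2, Sfrp4 and Lgr5 lie far right in MEF.

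Sequences upstream of 5 of these genes are shown, as examples of members with large changes whose annotated window lay outside the gene body. Wnt16, Rspo1 and Sfrp5 were higher in both CFAE+8+MSC and CFAE+6 than in CFAE+8, and Lgr6 and Ror1 were higher in every cocktail than in MEF. Each is the 250 bases before the transcript start (RefSeq, build GRCm38.p6), read 5′ to 3′ on the gene's strand. Capitals mark the only searched motif found, TGACG, the core of the element bound by the cAMP-responsive factor CREB, on either strand (CGTCA on the opposite one).
Wnt16 (chr6:22287977-22288226, + strand): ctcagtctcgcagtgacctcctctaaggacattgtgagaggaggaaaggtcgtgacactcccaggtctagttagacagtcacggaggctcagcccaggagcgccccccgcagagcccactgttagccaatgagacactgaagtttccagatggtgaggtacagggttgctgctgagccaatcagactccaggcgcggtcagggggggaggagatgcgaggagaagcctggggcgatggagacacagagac
Rspo1 (chr4:124986180-124986429, + strand): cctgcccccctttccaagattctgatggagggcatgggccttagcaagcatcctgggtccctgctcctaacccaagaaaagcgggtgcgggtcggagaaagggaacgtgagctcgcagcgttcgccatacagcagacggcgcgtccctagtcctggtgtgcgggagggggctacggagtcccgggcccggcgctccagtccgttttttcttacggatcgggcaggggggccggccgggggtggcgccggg
Sfrp5 (chr19:42202253-42202502, - strand): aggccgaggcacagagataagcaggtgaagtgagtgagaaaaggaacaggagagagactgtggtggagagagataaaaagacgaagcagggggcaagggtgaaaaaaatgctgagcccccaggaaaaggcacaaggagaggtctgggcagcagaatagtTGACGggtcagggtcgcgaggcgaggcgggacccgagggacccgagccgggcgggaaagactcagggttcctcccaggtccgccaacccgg
Lgr6 (chr1:135105277-135105526, - strand): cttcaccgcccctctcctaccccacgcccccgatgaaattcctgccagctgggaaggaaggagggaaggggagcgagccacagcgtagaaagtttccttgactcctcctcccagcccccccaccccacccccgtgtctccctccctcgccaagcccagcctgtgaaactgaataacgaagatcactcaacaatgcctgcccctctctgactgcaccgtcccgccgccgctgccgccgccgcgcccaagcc
Ror1 (chr4:100095541-100095790, + strand): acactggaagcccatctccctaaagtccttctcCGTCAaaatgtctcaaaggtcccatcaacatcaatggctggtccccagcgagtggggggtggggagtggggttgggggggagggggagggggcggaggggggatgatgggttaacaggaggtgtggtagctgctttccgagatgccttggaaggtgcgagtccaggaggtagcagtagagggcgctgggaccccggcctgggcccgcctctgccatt
The motif began 91 bases before the start in Sfrp5 and 217 bases before it, on the opposite strand, in Ror1, and the windows of Wnt16, Rspo1 and Lgr6 held none of the 6 motifs searched. The table had windows for 32 of the 48 members, 35 windows in all, each with a further 50 bases after the start. TGACG was in 5 of the 35 (14.3%), in Ror1, Sfrp5, Wnt10b and Wnt11, and in 20.8% of all 32851 windows. The TCF/LEF cores CTTTGAT and CTTTGAA, bound by the DNA-binding partners of beta-catenin, were in 2 windows (Wnt11 and Wnt5b) and in 0, against 3.73% and 5.14% of all windows. The full cAMP element TGACGTCA, which contains TGACG, the retinoic acid element (a direct repeat) and the SMAD palindrome GTCTAGAC were in none of the 35, against 1.79%, 0.00913% and 0.213% of all windows. Median GC content was 67.7% in the members' windows and 52.7% in all windows. A match or its absence describes these letters in this window and nothing about binding.

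Among the 12 tested ligands, 8 rose in CFAE+8 against MEF and 4 fell, where 30.8% of all tested genes rose and 31.3% fell. Wnt7b, a ligand known from lung and placenta development (ENSMUSG00000022382, mm10 chromosome 15, 85535437 to 85582473), had 26.5 and 23.1 CPM in CFAE+8+MSC, 19.3 and 21.2 CPM in CFAE+6, 6.74 and 5.94 CPM in CFAE+8, and 0.095 and 0.092 CPM in MEF. It was close to silent in MEF, with 1 read in each library, and the 2 cocktails other than CFAE+8 lay well above CFAE+8. Its count ratio to MEF was 266 in CFAE+8+MSC (95% counting interval 73.3 to 2202), 217 in CFAE+6 (59.8 to 1800.4) and 68.0 in CFAE+8 (18.5 to 566). Against CFAE+8, Wnt7b rose by 1.97 ± 0.16 in CFAE+8+MSC (adjusted p = 2.88e-11) and by 1.68 ± 0.16 in CFAE+6 (adjusted p = 1.67e-09) on the log2 scale.

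Wnt2b and Wnt2, which act together in specifying the lung, rose in each cocktail. Wnt2b (ENSMUSG00000027840, chromosome 3, 104945272 to 104961921) had 88.3 and 88.8 CPM in CFAE+8+MSC, 71.0 and 65.3 CPM in CFAE+6, 32.8 and 33.2 CPM in CFAE+8, and 11.1 and 10.99 CPM in MEF. The 4 groups did not overlap, with CFAE+8+MSC highest. Its log2 change to CFAE+8 was 1.42 ± 0.08 in CFAE+8+MSC (adjusted p = 9.77e-15) and 1.05 ± 0.08 in CFAE+6 (adjusted p = 2.25e-11), and CFAE+8 itself was 1.58 ± 0.11 above MEF (adjusted p = 1.29e-13). Wnt2 had 21.6 and 22.5 CPM in CFAE+8+MSC, 29.9 and 29.8 CPM in CFAE+6, 13.0 and 13.8 CPM in CFAE+8, and 2.28 and 3.76 CPM in MEF. Here CFAE+6 was highest, and again no groups overlapped. Wnt2 changed by 0.72 ± 0.14 in CFAE+8+MSC and by 1.15 ± 0.13 in CFAE+6 against CFAE+8 (log2, adjusted p = 0.000133 and 5.72e-08), and by 2.14 ± 0.19 in CFAE+8 against MEF (adjusted p = 7.73e-11).

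Wnt4, needed for kidney tubules and the ovary, had 65.7 and 77.0 CPM in CFAE+8+MSC, 82.6 and 92.3 CPM in CFAE+6, 46.5 and 47.4 CPM in CFAE+8, and 15.2 and 16.9 CPM in MEF. All 3 cocktails lay above MEF, by 2.15 ± 0.10, 2.45 ± 0.10 and 1.55 ± 0.11 on the log2 scale (adjusted p = 1.8e-17, 4.48e-19 and 1.33e-13). Wnt5b, the paralog of Wnt5a, had 11.6 and 11.5 CPM in CFAE+8+MSC, 10.6 and 10.4 CPM in CFAE+6, 12.8 and 12.04 CPM in CFAE+8, and 2.85 and 3.21 CPM in MEF. The cocktails lay close together and were not called different from each other, and each was above MEF, by 1.93 ± 0.20, 1.78 ± 0.21 and 2.03 ± 0.20 (log2, adjusted p = 1.71e-09, 9.72e-09 and 4.48e-10). The 95% interval of the Wnt5b change to CFAE+8 was -0.43 to 0.22 in CFAE+8+MSC and -0.58 to 0.08 in CFAE+6. Wnt11, known for cell movement in gastrulation and kidney branching, had 18.3 and 19.1 CPM in CFAE+8+MSC, 19.2 and 18.3 CPM in CFAE+6, 23.2 and 21.4 CPM in CFAE+8, and 11.02 and 11.2 CPM in MEF. It rose against MEF by 0.75 ± 0.14, 0.76 ± 0.14 and 1.01 ± 0.13 in these cocktails (log2, adjusted p = 1.93e-05, 1.64e-05 and 1.18e-07).

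Wnt6 and Wnt10a are neighbours on chromosome 1, with 6193 bases between them, and stood on opposite sides of MEF. Wnt6 (74771892 to 74785322) had 6.50 and 6.33 CPM in CFAE+8+MSC, 7.32 and 6.76 CPM in CFAE+6, 3.59 and 2.29 CPM in CFAE+8, and 1.43 and 1.37 CPM in MEF. It was lowest in MEF and intermediate in CFAE+8, without overlap. Wnt10a (74791516 to 74804179), a ligand of tooth and skin appendage development, had 6.50 and 5.61 CPM in CFAE+8+MSC, 6.08 and 7.79 CPM in CFAE+6, 2.99 and 3.82 CPM in CFAE+8, and 11.8 and 12.3 CPM in MEF. It was highest in MEF and lowest in CFAE+8. Against MEF, CFAE+6 changed by 2.32 ± 0.29 for Wnt6 and by -0.79 ± 0.19 for Wnt10a (log2, adjusted p = 6e-08 and 0.000624). Against CFAE+8, both were higher in CFAE+6, by 1.26 ± 0.25 and 1.03 ± 0.23 (adjusted p = 0.000302 and 0.000959). In CFAE+8+MSC, Wnt6 was higher than in CFAE+8 by 1.12 ± 0.26 (adjusted p = 0.00102) and Wnt10a by 0.83 ± 0.23 (adjusted p = 0.00729), but the Wnt10a call was lost without CFAE+8 replicate 1 (adjusted p = 0.0984) or CFAE+8+MSC replicate 1 (adjusted p = 0.0713). Wnt6 in CFAE+8 was 1.06 ± 0.34 above MEF (adjusted p = 0.00727), a call lost without CFAE+8 replicate 1 (0.71, adjusted p = 0.148).

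Wnt16, known for its effect on cortical bone thickness (ENSMUSG00000029671, chromosome 6, 22288227 to 22298522), had 15.6 and 17.997 CPM in CFAE+8+MSC, 17.3 and 17.5 CPM in CFAE+6, 2.39 and 3.73 CPM in CFAE+8, and 13.4 and 13.6 CPM in MEF. CFAE+8 alone was low. Wnt16 was higher than in CFAE+8 by 2.45 ± 0.19 in CFAE+8+MSC (adjusted p = 2.77e-11) and by 2.50 ± 0.19 in CFAE+6 (adjusted p = 2.32e-11), and CFAE+8 was below MEF by a log2 change of -2.14 ± 0.20 (adjusted p = 1.61e-10). Against MEF the change was 0.31 ± 0.15 in CFAE+8+MSC, which did not pass (adjusted p = 0.0778, but 0.0492 without CFAE+8+MSC replicate 1 and 0.0464 with only those groups fitted), and 0.36 ± 0.15 in CFAE+6 (adjusted p = 0.0383), which did not pass without any 1 of the 4 libraries compared (adjusted p = 0.0749, 0.101, 0.114 and 0.103). It was also not called by DESeq2 (adjusted p = 0.13) or without the filter on low counts (adjusted p = 0.0524).

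Wnt9a and Wnt10b fell in every cocktail against MEF. Wnt9a, involved in joint formation, had 10.8 and 9.22 CPM in CFAE+8+MSC, 7.32 and 9.24 CPM in CFAE+6, 5.80 and 4.07 CPM in CFAE+8, and 22.9 and 23.5 CPM in MEF. Its log2 change to MEF was -1.21 ± 0.16, -1.49 ± 0.16 and -2.23 ± 0.18 in the cocktails (adjusted p = 1.4e-07, 4.86e-09 and 5.16e-12). Against CFAE+8 it was higher by 1.02 ± 0.20 in CFAE+8+MSC (adjusted p = 0.00017) and by 0.75 ± 0.20 in CFAE+6 (adjusted p = 0.00614), the second lost without CFAE+6 replicate 2 (0.57, adjusted p = 0.103) or CFAE+8 replicate 2 (0.51, adjusted p = 0.138). Wnt10b, which favours bone over fat formation, had 2.42 and 2.35 CPM in CFAE+8+MSC, 1.15 and 2.31 CPM in CFAE+6, 3.16 and 3.48 CPM in CFAE+8, and 5.61 and 5.59 CPM in MEF. MEF was highest, and the log2 change was -1.22 ± 0.30 in CFAE+8+MSC and -1.68 ± 0.31 in CFAE+6 (adjusted p = 0.000637 and 2.61e-05). In CFAE+8 the change was -0.75 ± 0.28 (adjusted p = 0.0202), a call lost without any 1 of the 4 libraries (adjusted p = 0.0536 to 0.102) and with DESeq2 (adjusted p = 0.0964). Wnt10b was also lower in CFAE+6 than in CFAE+8, by -0.93 ± 0.33 (adjusted p = 0.0366), and this call was lost without CFAE+6 replicate 1 (-0.52, adjusted p = 0.364), without CFAE+8 replicate 1 (adjusted p = 0.0843) or 2 (adjusted p = 0.162), and with DESeq2 (adjusted p = 0.14).

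Wnt5a had 268 and 278 CPM in CFAE+8+MSC, 329 and 306 CPM in CFAE+6, 229 and 223 CPM in CFAE+8, and 169 and 174 CPM in MEF. The groups did not overlap, and the changes were smaller than 2-fold, at 0.67 ± 0.05, 0.89 ± 0.05 and 0.40 ± 0.05 against MEF (log2, adjusted p = 2.99e-12, 3.83e-15 and 1.44e-07). Wnt5a made up 31.7 and 31.8% of the summed ligand TPM in the CFAE+8+MSC libraries, 35.9 and 33.5% in CFAE+6, 40.7 and 40.4% in CFAE+8, and 43.3 and 42.8% in MEF. The other 7 ligands had too few reads to be tested, with totals over all 8 libraries of 2 reads for Wnt1, 0 for Wnt3a, 14 for Wnt7a, 2 for Wnt8a, 4 for Wnt8b and 14 for Wnt9b. Wnt3, which starts the primitive streak in the embryo, had 35 reads, as 5 and 6 in CFAE+8+MSC, 9 and 12 in CFAE+6, 0 and 0 in CFAE+8, and 1 and 2 in MEF. Against a floor of 3 reads over the CFAE+8 group, it was 3.81-fold higher in CFAE+8+MSC and 7.15-fold higher in CFAE+6. These ratios take the reads above the floor as exact, so they are not strict lower limits.

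All 10 Frizzled genes were tested, and Fzd10 had the largest change. Fzd10, a receptor mainly known from the embryonic nervous system and limb (ENSMUSG00000081683, chromosome 5, 128600844 to 128604093), had 65.8 and 62.4 CPM in CFAE+8+MSC, 61.9 and 64.1 CPM in CFAE+6, 42.3 and 42.1 CPM in CFAE+8, and 0.76 and 0.916 CPM in MEF. Its log2 change to MEF was 6.24 ± 0.16, 6.21 ± 0.16 and 5.63 ± 0.18 in the 3 cocktails (adjusted p = 1.06e-23, 1.24e-23 and 7.51e-22). It was also higher than in CFAE+8 by 0.60 ± 0.08 in CFAE+8+MSC and by 0.58 ± 0.08 in CFAE+6 (adjusted p = 6.04e-07 and 1.62e-06). Fzd10 took 12.2 and 11.6% of the summed Frizzled TPM in CFAE+8+MSC, 12.7 and 12.9% in CFAE+6, 10.5 and 10.3% in CFAE+8, and 0.141 and 0.162% in MEF.

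Fzd2 went the other way. Fzd2 (ENSMUSG00000050288, chromosome 11, 102604396 to 102608058), a receptor for Wnt5a among others, had 75.3 and 71.3 CPM in CFAE+8+MSC, 64.8 and 65.4 CPM in CFAE+6, 105 and 104 CPM in CFAE+8, and 228 and 238 CPM in MEF. The groups did not overlap, with MEF highest and CFAE+6 lowest. It fell against MEF in each cocktail, with log2 changes of -1.67 ± 0.06, -1.84 ± 0.06 and -1.16 ± 0.06 (adjusted p = 1.99e-20, 2.27e-21 and 6.01e-17). It was the only Frizzled called lower than in CFAE+8, by -0.51 ± 0.06 in CFAE+8+MSC and -0.68 ± 0.06 in CFAE+6 (adjusted p = 1.45e-07 and 9.37e-10). Its part of the summed Frizzled TPM was 12.4 and 11.8% in CFAE+8+MSC, 11.8 and 11.7% in CFAE+6, 23.1 and 22.6% in CFAE+8, and 37.5 and 37.4% in MEF.

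Fzd6 and Fzd3, which act in planar cell polarity and axon guidance, rose in each cocktail. Fzd6 (ENSMUSG00000022297, chromosome 15, 39006034 to 39038188) had 126 and 131 CPM in CFAE+8+MSC, 136 and 143 CPM in CFAE+6, 66.2 and 71.8 CPM in CFAE+8, and 22.0 and 24.6 CPM in MEF. Its log2 change was 0.90 ± 0.07 in CFAE+8+MSC and 1.02 ± 0.07 in CFAE+6 against CFAE+8 (adjusted p = 5.91e-12 and 5.32e-13), and 1.56 ± 0.08 in CFAE+8 against MEF (adjusted p = 3.37e-16). Fzd3 had 53.9 and 54.1 CPM in CFAE+8+MSC, 46.0 and 40.0 CPM in CFAE+6, 46.9 and 43.5 CPM in CFAE+8, and 14.8 and 13.3 CPM in MEF. Every cocktail lay above MEF, by 1.94 ± 0.11, 1.61 ± 0.11 and 1.69 ± 0.11 (log2, adjusted p = 6e-16, 8.48e-14 and 2.63e-14), while CFAE+6 and CFAE+8 overlapped. Fzd4, the receptor for Norrin in retinal vessels, had 3.12 and 3.71 CPM in CFAE+8+MSC, 2.56 and 3.59 CPM in CFAE+6, 3.07 and 2.37 CPM in CFAE+8, and 15.8 and 15.7 CPM in MEF. It was low in all cocktails, with log2 changes to MEF of -2.20 ± 0.21, -2.35 ± 0.22 and -2.52 ± 0.22 (adjusted p = 3.29e-10, 1.14e-10 and 3.59e-11).

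Fzd1 and Fzd7, broadly expressed receptors, changed by less than 2-fold in all comparisons. Fzd1 had 222 and 223 CPM in CFAE+8+MSC, 199 and 208 CPM in CFAE+6, 145 and 145 CPM in CFAE+8, and 175 and 181 CPM in MEF. It was lowest in CFAE+8, with rises of 0.62 ± 0.05 in CFAE+8+MSC and 0.49 ± 0.05 in CFAE+6 against CFAE+8 (log2, adjusted p = 1.27e-10 and 1.81e-08). Fzd7 had 138 and 139 CPM in CFAE+8+MSC, 103 and 95.9 CPM in CFAE+6, 94.0 and 95.8 CPM in CFAE+8, and 179.5 and 187 CPM in MEF. CFAE+8+MSC stood above the other cocktails, by 0.54 ± 0.06 against CFAE+8 (adjusted p = 1.97e-08), whereas the change in CFAE+6 against CFAE+8 was 0.07 ± 0.06 with an interval of -0.05 to 0.19. Fzd8 fell against MEF in each cocktail, by -0.61 to -0.80 on the log2 scale. Fzd5 ranged from 16.0 to 18.1 CPM over the 8 libraries and was called in none of the 6 comparisons (adjusted p = 0.606 to 0.908), with 95% intervals within -0.37 to 0.32. Fzd9 had 78 reads over the 8 libraries, and its calls (higher in CFAE+8+MSC and in CFAE+6 than in CFAE+8, lower in CFAE+8 than in MEF) were each lost without 1 library. The first was lost without CFAE+8+MSC replicate 1 (adjusted p = 0.165) or CFAE+8 replicate 1 (0.0513) or 2 (0.0951), and the second without CFAE+6 replicate 2 (0.136) or CFAE+8 replicate 1 (0.0524) or 2 (0.0993). The last was lost without CFAE+8 replicate 1 (0.0769) or 2 (0.15), without MEF replicate 2 (0.176), and with DESeq2 (0.0763). Exons of Fzd5 overlap those of another gene over 17.8% of their length, so its level is uncertain.

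**Figure D3:**
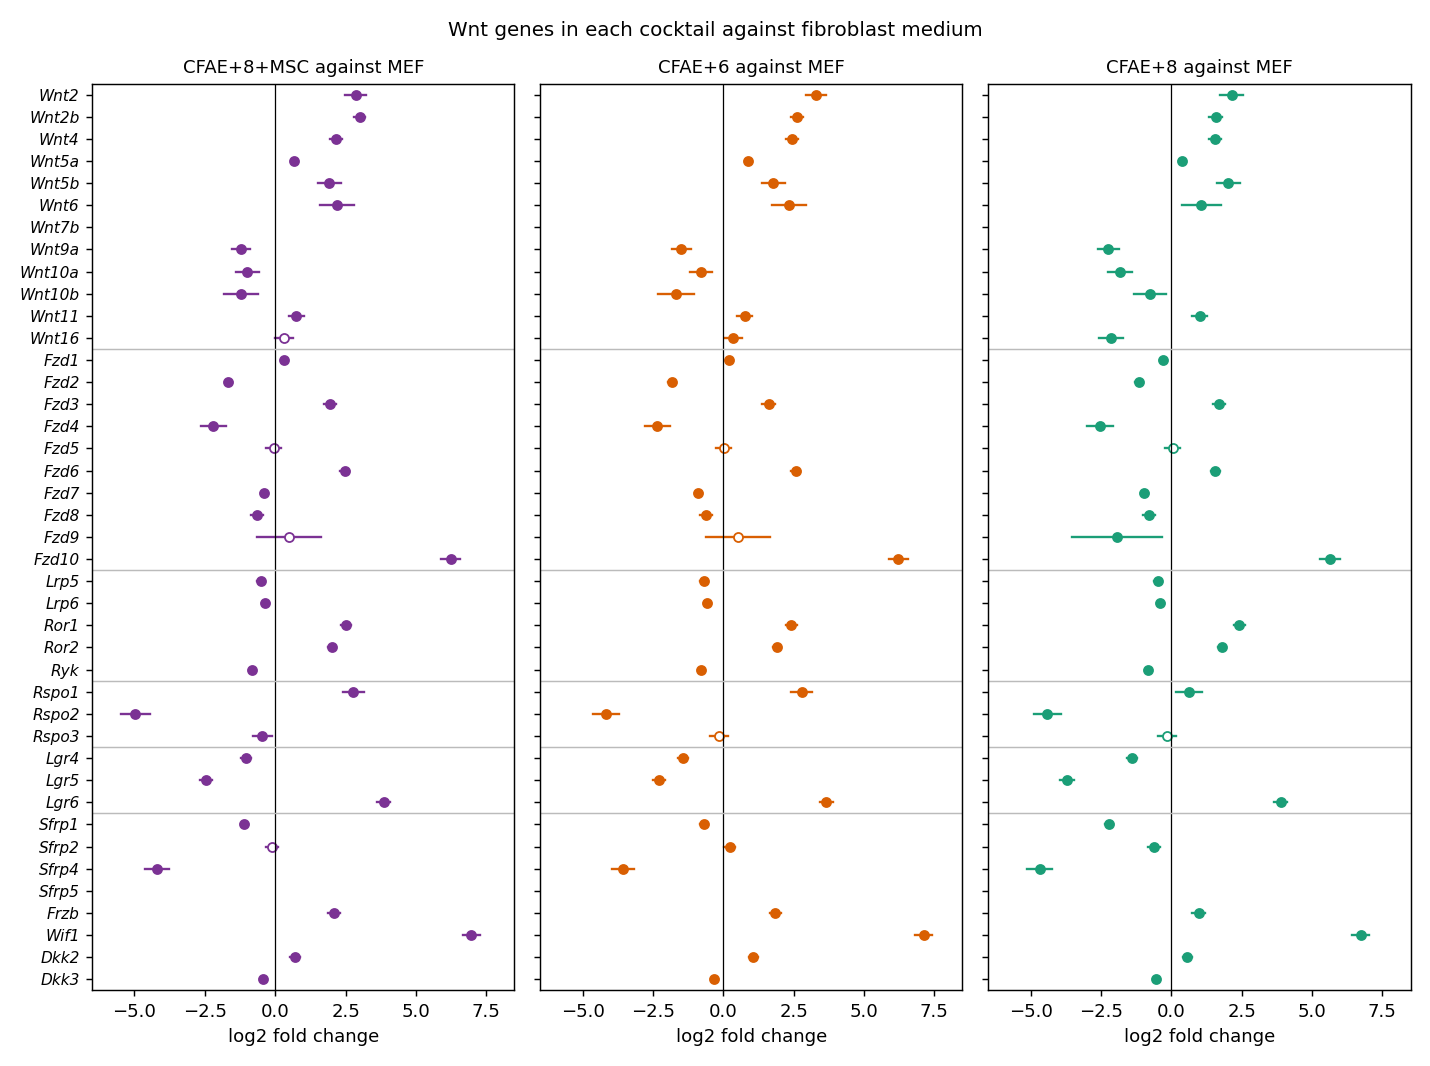
Log2 fold change of each tested member in CFAE+8+MSC, CFAE+6 and CFAE+8 against MEF, with 95% intervals. Filled points passed the test, open points did not. Wnt7b and Sfrp5 are left blank because MEF had 3 reads or fewer. Wif1 and Fzd10 lie farthest right, at 6.97 and 6.24 in CFAE+8+MSC, and Rspo2 lies farthest left there, at -4.97.

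Among the co-receptors, Ror1 and Ror2, the tyrosine kinase-like receptors of Wnt5a, rose in every cocktail against MEF, and Lrp5, Lrp6 and Ryk fell. Ror2, mutated in human brachydactyly (ENSMUSG00000021464, chromosome 13, 53109312 to 53286124), had 215 and 206 CPM in CFAE+8+MSC, 193 and 197 CPM in CFAE+6, 183 and 180.5 CPM in CFAE+8, and 52.6 and 52.1 CPM in MEF. The cocktails were far above MEF, by 2.01 ± 0.06, 1.90 ± 0.06 and 1.80 ± 0.06 (log2, adjusted p = 2.54e-22, 1.03e-21 and 4.64e-21). Ror1 (ENSMUSG00000035305, chromosome 4, 100095791 to 100444765) had 75.3 and 75.4 CPM in CFAE+8+MSC, 72.7 and 68.4 CPM in CFAE+6, 72.0 and 68.8 CPM in CFAE+8, and 13.0 and 13.3 CPM in MEF. Against MEF it rose by 2.52 ± 0.09, 2.42 ± 0.09 and 2.42 ± 0.09 (log2, adjusted p = 4.02e-20, 1.16e-19 and 1.17e-19). Ror1 was not called between cocktails, with intervals of -0.05 to 0.24 for CFAE+8+MSC and -0.14 to 0.15 for CFAE+6 against CFAE+8.

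Ryk, an atypical kinase that binds Wnt ligands, had 143 and 144 CPM in CFAE+8+MSC, 151 and 147 CPM in CFAE+6, 148 and 146 CPM in CFAE+8, and 260.4 and 255 CPM in MEF. The cocktails lay close together below MEF, with log2 changes of -0.84 ± 0.05, -0.79 ± 0.05 and -0.81 ± 0.05 (adjusted p = 1.43e-14, 5.8e-14 and 3.4e-14) and intervals against CFAE+8 of -0.14 to 0.08 in CFAE+8+MSC and -0.09 to 0.13 in CFAE+6. Lrp6 had 102 and 93.8 CPM in CFAE+8+MSC, 86.4 and 82.2 CPM in CFAE+6, 92.9 and 97.0 CPM in CFAE+8, and 121 and 128 CPM in MEF. Lrp5 and Lrp6, the co-receptors for beta-catenin signalling, were lower than in MEF in each cocktail, with log2 changes between -0.35 and -0.69. Both were also called lower in CFAE+6 than in CFAE+8, Lrp5 by -0.21 ± 0.06 (adjusted p = 0.0134) and Lrp6 by -0.17 ± 0.07 (adjusted p = 0.0496). Neither held in DESeq2 (adjusted p = 0.0628 and 0.167). The Lrp5 call was lost without CFAE+6 replicate 1 (adjusted p = 0.0952) and without CFAE+8 replicate 1 (0.116) or 2 (0.0519), and the Lrp6 call without any 1 of the 4 libraries (adjusted p = 0.0577 to 0.287) and under RLE and upper-quartile scaling (adjusted p = 0.0572 and 0.0522).

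Rspo1, Rspo2 and Rspo3 each had their own pattern. Rspo1, which acts in ovary development (ENSMUSG00000028871, chromosome 4, 124986430 to 125009099), had 20.3 and 24.8 CPM in CFAE+8+MSC, 21.7 and 23.5 CPM in CFAE+6, 5.04 and 5.004 CPM in CFAE+8, and 3.33 and 3.21 CPM in MEF. The first 2 groups overlapped each other and stood far above the other 2. Against CFAE+8, Rspo1 rose by 2.16 ± 0.16 in CFAE+8+MSC and by 2.17 ± 0.16 in CFAE+6 (log2, adjusted p = 1.23e-11 and 1.74e-11). CFAE+8 was 0.62 ± 0.23 above MEF (adjusted p = 0.0198), a call lost without any 1 of the 4 libraries (adjusted p = 0.0558 to 0.0862). Rspo2, needed for limb and lung development (ENSMUSG00000051920, chromosome 15, 43020794 to 43170826), had 1.21 and 0.543 CPM in CFAE+8+MSC, 1.23 and 1.88 CPM in CFAE+6, 1.45 and 1.19 CPM in CFAE+8, and 28.2 and 27.8 CPM in MEF. It was low in every cocktail, with CFAE+8 overlapping each of the other cocktails. Its log2 change to MEF was -4.97 ± 0.25, -4.16 ± 0.23 and -4.40 ± 0.23 (adjusted p = 1.52e-16, 8.26e-16 and 4.29e-16). Rspo3, which acts in placental and vessel development, ranged from 10.5 to 17.5 CPM over the 8 libraries. Its only call, -0.46 ± 0.17 in CFAE+8+MSC against MEF (adjusted p = 0.0164), was lost without MEF replicate 2 (-0.19, adjusted p = 0.417), without CFAE+8+MSC replicate 1 (adjusted p = 0.0816) and with DESeq2 (adjusted p = 0.0612). Exons of Rspo3 overlap another gene over 13.1% of their length.

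Of the summed TPM of all 4 R-spondins, Rspo1 made up 20.8 and 23.2% in CFAE+8+MSC, 18.5 and 19.2% in CFAE+6, 8.17 and 7.80% in CFAE+8, and 15.3 and 13.0% in MEF. For Rspo2 the shares were 0.472 and 0.193%, 0.399 and 0.586%, 0.893 and 0.702%, and 49.1 and 42.7% in the same order of groups. Rspo4 took 72.0 and 70.0%, 74.2 and 73.0%, and 78.2 and 77.3% in the cocktails and 0.356 and 0% in MEF. Most of the R-spondin transcripts were thus Rspo4 in the cocktails and Rspo2 with Rspo3 in MEF.

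Of the R-spondin receptors, Lgr6 rose and Lgr5 and Lgr4 fell in each cocktail against MEF. Lgr6, a marker of hair follicle stem cells (ENSMUSG00000042793, chromosome 1, 134983301 to 135105276), had 85.0 and 79.6 CPM in CFAE+8+MSC, 70.2 and 74.6 CPM in CFAE+6, 85.3 and 83.1 CPM in CFAE+8, and 5.80 and 5.59 CPM in MEF. Its log2 change to MEF was 3.85 ± 0.11, 3.67 ± 0.11 and 3.88 ± 0.11 (adjusted p = 4.69e-23, 2.17e-22 and 3.38e-23). Lgr6 was called lower in CFAE+6 than in CFAE+8 by -0.22 ± 0.07 (adjusted p = 0.0204), but not without CFAE+6 replicate 1 (adjusted p = 0.163), without CFAE+8 replicate 1 (0.145) or 2 (0.0773), or with DESeq2 (adjusted p = 0.119). Lgr5, a marker of intestinal stem cells and itself a beta-catenin target (ENSMUSG00000020140, chromosome 10, 115450311 to 115587780), had 14.3 and 14.0 CPM in CFAE+8+MSC, 16.6 and 15.6 CPM in CFAE+6, 5.38 and 6.62 CPM in CFAE+8, and 77.3 and 80.1 CPM in MEF. It was lowest in CFAE+8, with log2 changes to CFAE+8 of 1.24 ± 0.15 in CFAE+8+MSC and 1.42 ± 0.14 in CFAE+6 (adjusted p = 1.14e-07 and 6.57e-09) and of -3.71 ± 0.12 in CFAE+8 against MEF (adjusted p = 1.39e-21).

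Lgr4, the broadly expressed member, had 34.9 and 38.3 CPM in CFAE+8+MSC, 28.1 and 27.1 CPM in CFAE+6, 27.1 and 29.3 CPM in CFAE+8, and 78.3 and 71.5 CPM in MEF. MEF was highest, with log2 changes of -1.03 ± 0.08, -1.44 ± 0.09 and -1.41 ± 0.09 (adjusted p = 9.28e-12, 1.07e-14 and 1.63e-14). Lgr4 in CFAE+8+MSC was above CFAE+8 by 0.38 ± 0.09 (adjusted p = 0.0028), a call that just missed the threshold without CFAE+8 replicate 1 (0.33, adjusted p = 0.0515). Per transcript length, Lgr6 made up 62.9 and 59.6% of the summed Lgr TPM in CFAE+8+MSC, 61.6 and 64.0% in CFAE+6, 70.8 and 68.4% in CFAE+8, and 3.90 and 3.93% in MEF.

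The secreted antagonists among the 48 genes rose against CFAE+8 in 5 of 8 cases in CFAE+8+MSC and in 8 of 8 in CFAE+6, with none lower, and their median log2 change was 0.49 and 0.86. Of all tested genes, 15.6% rose and 13.8% fell in CFAE+8+MSC against CFAE+8, and 14.3% and 12.3% in CFAE+6 against CFAE+8. Wif1, which binds Wnt ligands (ENSMUSG00000020218, chromosome 10, 121033960 to 121100650), had 100.1 and 101 CPM in CFAE+8+MSC, 108 and 116 CPM in CFAE+6, 83.4 and 86.9 CPM in CFAE+8, and 0.95 and 0.641 CPM in MEF. It had the largest change to MEF among members with more than 3 reads in both groups, at 6.97 ± 0.15, 7.12 ± 0.15 and 6.73 ± 0.15 (log2, adjusted p = 6.05e-26, 2.05e-26 and 2.46e-25). Between cocktails it differed little, by 0.24 ± 0.07 in CFAE+8+MSC (adjusted p = 0.00636, and 0.0838 without CFAE+8 replicate 1) and by 0.39 ± 0.07 in CFAE+6 (adjusted p = 2.75e-05) against CFAE+8.

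Sfrp5 (ENSMUSG00000018822, chromosome 19, 42197971 to 42202252), of the secreted Frizzled-related proteins that bind Wnt ligands, had 4.85 and 5.52 CPM in CFAE+8+MSC, 9.96 and 14.1 CPM in CFAE+6, 0.598 and 1.78 CPM in CFAE+8, and 0 and 0 CPM in MEF. No groups overlapped, and CFAE+6 was highest. Against the floor of 3 reads over the MEF libraries it was at least 37.0-fold higher in CFAE+8+MSC, at least 86.3-fold higher in CFAE+6 and at least 8.51-fold higher in CFAE+8. Its rise against CFAE+8 was 2.11 ± 0.36 in CFAE+8+MSC and 3.33 ± 0.32 in CFAE+6 (log2, adjusted p = 3.13e-05 and 2.62e-09). Sfrp1 (ENSMUSG00000031548, chromosome 8, 23411502 to 23449632) had 78.6 and 78.4 CPM in CFAE+8+MSC, 107 and 100.4 CPM in CFAE+6, 38.2 and 34.5 CPM in CFAE+8, and 159 and 177 CPM in MEF. CFAE+8 was lowest, with log2 changes to CFAE+8 of 1.11 ± 0.08 in CFAE+8+MSC and 1.51 ± 0.07 in CFAE+6 (adjusted p = 1.69e-12 and 1.25e-15), and of -2.21 ± 0.07 in CFAE+8 against MEF (adjusted p = 3.12e-21).

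Frzb, a Frizzled-related protein of cartilage (ENSMUSG00000027004, chromosome 2, 80411970 to 80447625), had 72.4 and 66.4 CPM in CFAE+8+MSC, 61.2 and 56.3 CPM in CFAE+6, 31.9 and 31.7 CPM in CFAE+8, and 17.7 and 14.8 CPM in MEF. It was higher than in CFAE+8 by 1.12 ± 0.09 in CFAE+8+MSC and 0.88 ± 0.09 in CFAE+6 (log2, adjusted p = 2e-11 and 5.14e-09), and CFAE+8 was 0.97 ± 0.11 above MEF (adjusted p = 5.37e-09). Sfrp4, known for its effect on bone, had 1.91 and 1.54 CPM in CFAE+8+MSC, 2.38 and 2.996 CPM in CFAE+6, 1.02 and 1.44 CPM in CFAE+8, and 32.1 and 31.7 CPM in MEF. It was low in every cocktail, with log2 changes to MEF of -4.20 ± 0.21, -3.56 ± 0.19 and -4.68 ± 0.22 (adjusted p = 6.1e-17, 4.25e-16 and 1.59e-17). Its rise in CFAE+6 against CFAE+8 (1.12 ± 0.32, adjusted p = 0.00877) was lost without CFAE+6 replicate 2 (0.94, adjusted p = 0.0932) or CFAE+8 replicate 1 (0.90, adjusted p = 0.107).

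Dkk2, which binds Lrp5 and Lrp6, had 71.3 and 75.2 CPM in CFAE+8+MSC, 102 and 87.1 CPM in CFAE+6, 68.6 and 64.6 CPM in CFAE+8, and 43.9 and 45.8 CPM in MEF. It was highest in CFAE+6, 0.50 ± 0.07 above CFAE+8 (log2, adjusted p = 5.17e-06), and each cocktail was above MEF, by 0.71 ± 0.08, 1.07 ± 0.08 and 0.57 ± 0.08 (adjusted p = 9.41e-09, 7.56e-13 and 5.17e-07). Dkk3, a diverged member of the Dkk family, had 149 and 151 CPM in CFAE+8+MSC, 168 and 161 CPM in CFAE+6, 143 and 138 CPM in CFAE+8, and 200.04 and 208 CPM in MEF. MEF was highest, with log2 changes of -0.45 ± 0.05, -0.31 ± 0.05 and -0.54 ± 0.05 (adjusted p = 2.71e-08, 9.51e-06 and 6.93e-10). Sfrp2 ranged from 25.1 to 48.2 CPM, with both CFAE+8 libraries below all others, and its exons overlap another gene over 16.1% of their length.

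**Figure D4:**
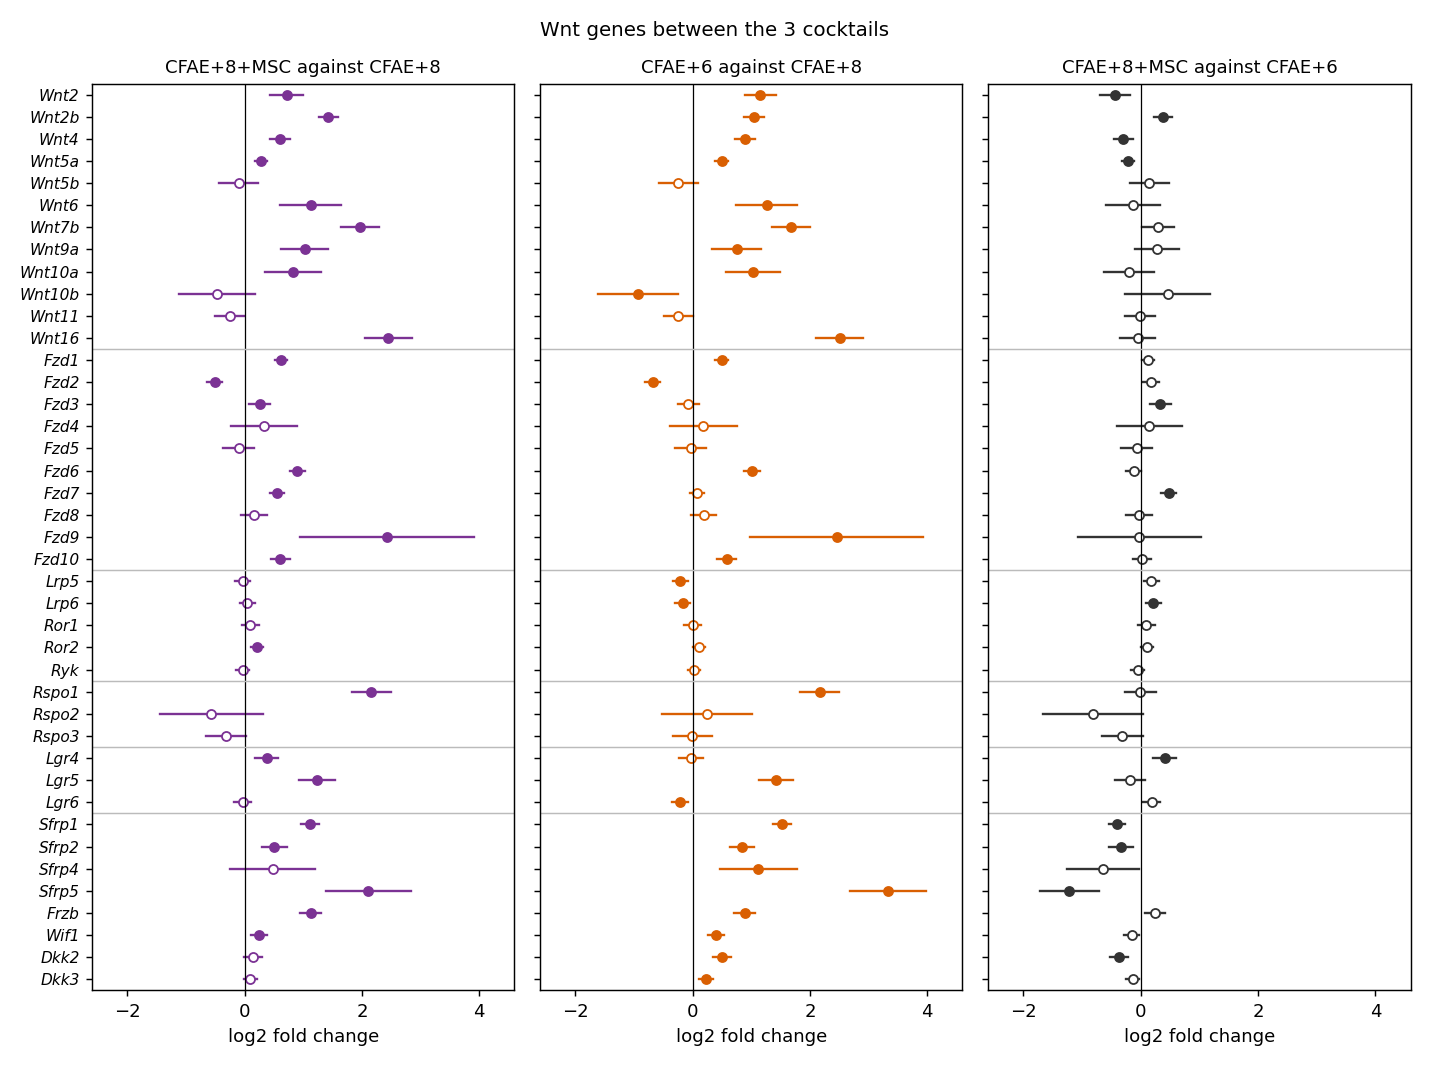
Log2 fold change of each tested member in CFAE+8+MSC and in CFAE+6 against CFAE+8, and in CFAE+8+MSC against CFAE+6, with 95% intervals. Filled points passed the test, open points did not. In the first 2 panels Wnt16, Fzd9, Rspo1, Wnt7b and Sfrp5 lie to the right, at 2.45, 2.43, 2.16, 1.97 and 2.11 in CFAE+8+MSC, while most points of the last panel lie near 0. Fzd9 had 78 reads over the 8 libraries.

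A-83-01 and E-616452, which share their stated target, formed the only pair of single compounds exchanged for each other, in CFAE+6 against CFAE+8. Whether their doses matched is not given. Of the members, Sfrp5, Wnt16, Fzd9 and Rspo1 had the largest differences between them, and Ror1, Ryk and Fzd5 were among those not called, with the intervals given above. CFAE+8+MSC and CFAE+6, which differ in the TGF-beta receptor inhibitor and in MSC2530818, were closer. Of the 41, 5 rose and 7 fell in CFAE+8+MSC against CFAE+6, and 29 did not pass, where 10.5% of all tested genes passed, 6.21% higher and 4.27% lower. The median was -0.027 over the members and -0.0042 over all tested genes.

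Sfrp5 had the only change of at least 2-fold in CFAE+8+MSC against CFAE+6, -1.22 ± 0.25 (adjusted p = 0.00125), and this call was lost without CFAE+6 replicate 2 (-0.94, adjusted p = 0.0599). Fzd7 was higher in CFAE+8+MSC by 0.47 ± 0.06 (adjusted p = 1.29e-06) and Wnt2b by 0.38 ± 0.07 (adjusted p = 0.000549), and Sfrp1 was lower by -0.40 ± 0.07 (adjusted p = 0.000126) and Dkk2 by -0.37 ± 0.07 (adjusted p = 0.000995). Each of those 4 was called whichever library was left out. Lgr4 was higher by 0.41 ± 0.09 (adjusted p = 0.00433, and 0.0717 without CFAE+8+MSC replicate 2). The remaining 6 calls, for Wnt2, Wnt4, Wnt5a, Fzd3, Lrp6 and Sfrp2, lay between -0.44 and 0.33, and each was lost without at least 1 library, Wnt5a without CFAE+8+MSC replicate 1 (adjusted p = 0.062) or CFAE+6 replicate 1 (0.0663), and the others without CFAE+6 replicate 2 (adjusted p = 0.092, 0.212, 0.228, 0.207 and 0.205 for Wnt2, Wnt4, Fzd3, Lrp6 and Sfrp2). Wnt4 and Lrp6 were also lost without CFAE+8+MSC replicate 1 (0.288 and 0.294), Sfrp2 without CFAE+8+MSC replicate 2 (0.326), Fzd3 without either of those libraries (0.0643 and 0.0606), and Wnt2 without any 1 of the 4 libraries (up to 0.132). Rspo1 and Wnt16 were not called, with intervals of -0.28 to 0.27 and -0.35 to 0.25.

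Other parts of the pathway were set beside these genes as lists of symbols. Of all genes tested, 15.6% rose and 13.8% fell in CFAE+8+MSC against CFAE+8, 14.3 and 12.3% in CFAE+6 against CFAE+8, and 30.8 and 31.3% in CFAE+8 against MEF. Of 27 other extracellular or membrane Wnt regulators, 23 were tested, of which 10 rose and 2 fell in CFAE+8+MSC and 9 rose and 3 fell in CFAE+6 against CFAE+8, with medians of 0.10 and 0.075 on the log2 scale. Against MEF, 15 rose and 6 fell in CFAE+8. Among those with the smallest p were Apcdd1, a membrane inhibitor of Wnt signalling (6.22 ± 0.05, adjusted p = 7.88e-37), Notum (8.78 ± 0.12, adjusted p = 5.95e-31), Draxin (7.11 ± 0.11, adjusted p = 6.49e-29) and Cthrc1 (2.55 ± 0.05, adjusted p = 2.76e-26), all for CFAE+8 against MEF. The exon overlap given above for Notum limits its value here too. Rspo4 rose against CFAE+8 by 0.57 ± 0.07 in CFAE+8+MSC and by 0.85 ± 0.07 in CFAE+6 (adjusted p = 3.14e-07 and 1.24e-10). Rnf43, the ubiquitin ligase that removes Frizzled receptors, rose by 1.15 ± 0.15 and 0.89 ± 0.15 (adjusted p = 3.71e-07 and 3.67e-05).

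All 27 intracellular members listed were tested. In CFAE+8+MSC against CFAE+8, 5 rose and 8 fell, and in CFAE+6 against CFAE+8, 4 rose and 5 fell, with medians of -0.098 and -0.081. Tcf7, a DNA-binding partner of beta-catenin, fell by a log2 change of -0.41 ± 0.06 in CFAE+8+MSC and -0.52 ± 0.06 in CFAE+6 against CFAE+8 (adjusted p = 4.66e-06 and 9.12e-08), and had risen by 5.86 ± 0.11 in CFAE+8 against MEF (adjusted p = 1.96e-27). Lef1, another such partner, rose by 0.35 ± 0.06 in CFAE+8+MSC against CFAE+8 (adjusted p = 8.8e-05) and by 6.26 ± 0.14 in CFAE+8 against MEF (adjusted p = 1.24e-25). Exons of Lef1 overlap another gene over 13.7% of their length. Of 15 planar polarity genes, 4 rose and 3 fell in CFAE+8+MSC, and 4 rose and 1 fell in CFAE+6, against CFAE+8, where 29.3 and 26.6% of all genes tested were called. Nothing particular to that list is read from these counts. Daam2, a formin of that pathway, rose by 1.40 ± 0.11 and 1.26 ± 0.11 in these comparisons (adjusted p = 5.26e-11 and 8.14e-10). In CFAE+8 against MEF it had fallen by -1.54 ± 0.11 (adjusted p = 7.31e-13). Prickle2, next by p in both comparisons with CFAE+8, fell by -0.77 ± 0.09 and -0.46 ± 0.09 (adjusted p = 1.76e-07 and 0.000249). Of 19 tested beta-catenin feedback and target genes, among them Lgr5, 14 rose and 3 fell in CFAE+8 against MEF, and Lgr5 was one of those that fell.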

How the data were processed

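The table deposited by the authors holds unnormalised counts for 8 libraries, made with featureCounts from Subread, per the submitters' processing notes, which also name DESeq2 and the build mm10, without versions. RNA came from an EasyPure kit and libraries, per the labels' protocols, from a NEBNext Ultra kit. Strand is not marked by that kit, so reads of overlapping genes cannot be told apart. Aligner, annotation release and strand setting were not given in the sources used here. Groups came from the titles and treatment labels, 2 libraries each.

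From the counts, CPM on the scale of TMM factors and TPM from the deposited gene lengths were computed. The filterByExpr function of edgeR 4.0.16, run in R 4.3.3, left 15470 of 28024 genes with reads. All 6 comparisons were tested by quasi-likelihood F tests in edgeR on a model with 4 group means and all 8 libraries (4 residual degrees of freedom, common biological coefficient of variation 0.0445), with calls at a Benjamini-Hochberg adjusted p under 0.05. The SE is the size of the coefficient over the square root of F. A group with 0 reads gave a fold against a floor of 3 reads over that group (0.128 to 0.140 CPM), and 1 to 3 reads gave a ratio and its exact counting interval. The fold against the floor takes the reads of the other group as exact, and the interval covers counting error only.

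Per-library values are given for members that reached 5 CPM on average in any group and had a call of at least 2-fold with both libraries of 1 group beyond both of the other, for the 6 other tested members with the highest mean CPM, and for Wnt3 as an exception. List genes were taken by smallest adjusted p, up to 4 a list against MEF and up to 3 against CFAE+8. The members and all lists were chosen with earlier results of these data known. Gene spans are those of the deposited table, of which 47 of the 48 members' match GENCODE M21, used for exon overlaps. Promoter windows are from RefSeq (GRCm38.p6). Alternatives were RLE and upper-quartile scaling, other filters, a test against a 1.2-fold change, a replicate block, a fit of only the groups compared, DESeq2 1.42.0, and leaving out each library.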

Additional observations from a re-analysis of the deposited data

How the results depend on the processing

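None of the members' 179 calls over the 6 comparisons changed sign under an alternative, whereas 25 of the 67 values that did not pass did (among them Rspo3 in CFAE+8 against MEF, -0.37 to 0.13). Of 1140 values under alternatives for calls that met the 2-fold rule with 5 CPM and groups apart, 1139 kept their direction and call. The other, for Sfrp5 in CFAE+8+MSC against CFAE+6, did not pass without CFAE+6 replicate 2 (log2 -0.94). That set was picked from these same data for large, separated calls, so it says little about the rest. Among 2-fold calls below 5 CPM, those of Fzd9, of Sfrp4 in CFAE+6 against CFAE+8 and of Wnt6 in CFAE+8 against MEF were lost under some alternative. The call of Sfrp5 in CFAE+8 against MEF was kept. Calls that held in every alternative numbered 18 of 25 in CFAE+8+MSC against CFAE+8, 19 of 28 in CFAE+6 against CFAE+8, 1 of 12 (Fzd7) in CFAE+8+MSC against CFAE+6, and 34 of 37, 34 of 38 and 34 of 39 in CFAE+8+MSC, CFAE+6 and CFAE+8 against MEF. The 5 members lower in CFAE+6 than in CFAE+8 became 1 in a test against a 1.2-fold change and in DESeq2, and 1 to 4 with 1 library left out. In CFAE+8+MSC against CFAE+6, the 5 higher became 1 in the 1.2-fold test, 3 in DESeq2 and 3 to 5 with 1 library left out, and the 7 lower became 1, 4 and 3 to 5. Over all genes, 4538 calls in CFAE+8+MSC against CFAE+8 became 2025 in the 1.2-fold test (3181 to 3502 without 1 library). The 4116 in CFAE+6 against CFAE+8 became 1654 (2720 to 3373 without 1 library, the lowest without CFAE+8 replicate 2), and the 1621 in CFAE+8+MSC against CFAE+6 became 279, 998 in DESeq2 and 947 to 1451 without 1 library. The 1.2-fold test asks for a larger change and one library fewer leaves fewer samples, while the cause of the DESeq2 differences was not tested. Under other scalings the median of all genes lay between -0.017 and 0.061 log2 units. Replicate numbers did not pair the libraries (correlations of replicate differences -0.021 to 0.051, with 2 pairs per comparison), and with a replicate block the counts were 24 higher and 1 lower, 23 and 4, and 6 and 7 in the comparisons between cocktails, where Lrp6 lost its call in CFAE+6 against CFAE+8 (adjusted p = 0.0523) and Frzb gained one in CFAE+8+MSC against CFAE+6 (0.0445). With 2 libraries per group, low levels such as those of Fzd9, Wnt10b and Sfrp4 in the cocktails limit what single libraries can show.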
